A study of Mus musculus with 6 samples.

Results

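The Toll-like receptors and their shared adaptor Myd88 were followed in naive mesenteric lymph nodes of mice. The probes were found by mapping the accession that each non-control array probe carries to a RefSeq gene symbol and keeping every probe of Tlr1 to Tlr9 and Myd88. The rule gave 10 probes, out of 41006 on the array, for 9 of the 10 listed genes, beside 12254 genes with a symbol in the whole series. Tlr5 had a pair of probes and the 8 other genes had 1 probe each, while Tlr1 had no probe under this rule and was not analysed here. All 10 probes passed the filter on dim signal, and each was well above background in both channels on all 6 arrays, with none saturated.

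The study compared adult TB-TNF KO double mice with adult B-TNF KO mice, to find genes that depend on the cytokine TNF made by T cells and by B cells. By their names both groups lack TNF in B cells and the double knockout lacks it in T cells too, and no wild-type node was analysed here. Each sample was RNA from the frozen mesenteric nodes of 3 mice pooled, with 3 samples per group, labelled with Cy3. Every array also carried, in Cy5, a common RNA pool of 11 mouse cell lines, which include B-lymphocyte, T-lymphocyte and alveolar macrophage lines. The labels do not say what drives either deletion. They give all pools as male except TB-TNF KO double replicate 2, which is female.

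Toll-like receptors are membrane proteins that bind molecules typical of microbes. Tlr2, Tlr4, Tlr5 and Tlr6 act at the cell surface, whereas Tlr3, Tlr7, Tlr8 and Tlr9 act in endosomes and bind nucleic acids. All of them except Tlr3 signal through Myd88, which recruits Irak kinases and leads to NF-kB activation and to cytokines that include TNF itself. In lymph nodes the receptors are known from macrophages, dendritic cells and B cells, with Tlr7 and Tlr9 prominent in B cells and plasmacytoid dendritic cells.

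Some arrays stood apart from the others. TB-TNF KO double arrays 1 and 2 differed by about the technical noise, taken from the common reference channel. The SD of their node-channel differences was 0.952 times that of their reference-channel differences. For the 14 other pairs of arrays this ratio was 1.05 to 1.59. The mean of TB-TNF KO double arrays 1 and 2 was therefore counted as 1 sample (n = 2 against 3). The Y-linked gene Eif2s3y had log2 ratios of -2.81 and -2.84 on these arrays and of 0.59 to 1.83 on the other 4, so replicate 1 went against its label as male. Among those 4 it was 0.59 and 0.88 on B-TNF KO replicates 1 and 2. On replicate 3 it was 1.83 in B-TNF KO and 1.49 in TB-TNF KO double. Median background-subtracted intensity of the reference channel was 315 to 362 on TB-TNF KO double arrays and 280 to 283 on B-TNF KO arrays, and that of the node channel was 144 to 166 on TB-TNF KO double arrays and 159 to 203 on B-TNF KO arrays. Each day of feature extraction in the file headers held arrays of 1 group, so day and group cannot be told apart. Markers of exocrine pancreas, a tissue next to these nodes, had a median log2 ratio from 4.52 to 5.29 on replicates 1 and 2 of both groups and of 0.06 and 0.13 on replicate 3. Tnf, the targeted gene, had log2 ratios of -0.66, -0.63 and -0.84 in TB-TNF KO double nodes, against 0.19, 0.36 and 0.49 in B-TNF KO nodes. Its difference of -1.09 (SE 0.10) had an adjusted p of 0.055 in limma, a second Tnf probe differed by -0.26, and the sources used here do not place the probes relative to the deletion.

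The probe sequences are shown for the 2 genes whose groups stood apart most, Tlr6 and Tlr7, and for Tlr5, because its 2 probes overlap and so are not independent measurements. They are read 5′ to 3′ as the array design gives them, and for Tlr7 only the first 30 bases of the 60-base probe are given. Capitals mark the 39 bases that both Tlr5 probes hold.
Tlr6 probe: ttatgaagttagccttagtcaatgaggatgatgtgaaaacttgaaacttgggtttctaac
Tlr7 probe, first 30 bases: acctaggacatgccttggtacctgaagttt
Tlr5 probe a: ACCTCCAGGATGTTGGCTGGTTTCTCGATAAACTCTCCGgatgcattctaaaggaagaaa
Tlr5 probe b: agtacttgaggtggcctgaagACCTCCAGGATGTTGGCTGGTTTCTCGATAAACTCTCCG
The shared stretch lies at the start of probe a and at the end of probe b. No other pair of these 10 probes shares a run longer than 9 bases, including those of Tlr7 and Tlr8, which are neighbours on chromosome X. The probes were compared only with each other and not with transcripts, so whether each reads its own gene alone was not tested.

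Tlr6 and Tlr7 were the receptors with lower values in TB-TNF KO double nodes, by 1.25-fold and 1.21-fold, with every array of that group below every B-TNF KO array. Tlr2, Tlr3, Tlr5, Tlr8 and Tlr9 had overlapping groups and differences no larger than 0.06 on the log2 scale. No member passed an adjusted p of 0.05 in limma, in a table where 6 of 40791 probes did (0.0147%), all of them lower. By unadjusted p under 0.05, 2 of the 10 probes were lower and 0 higher, that is 20%, beside 11.2% of all probes lower and 5.02% higher. The share of lower probes varied with base composition. It was 23.2% for probes with up to 35% G and C, as in Tlr6. From there up to 40%, the value of Tlr7, it was 15.4%, and above 55% it was 2.24%. Arrays of the groups did not overlap for 2 members with lower and 1 with higher values, beside 16.9% and 10.6% of all probes. In all, 8 of the 10 probes had a lower mean, beside 55% of all probes, and the median difference was -0.02 over the members and -0.01 over all probes. By the node channel alone, 2 probes were lower and 1 was higher at an unadjusted p under 0.05, beside 11.7% and 10.8% of all probes, and by the reference channel 1 was lower and 1 higher, beside 14.1% and 8.89%. All differences are log2 ratios (node over cell line reference) of TB-TNF KO double minus B-TNF KO. In bulk nodes, fewer cells of a type and less RNA per cell cannot be told apart.

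**Figure D1:**
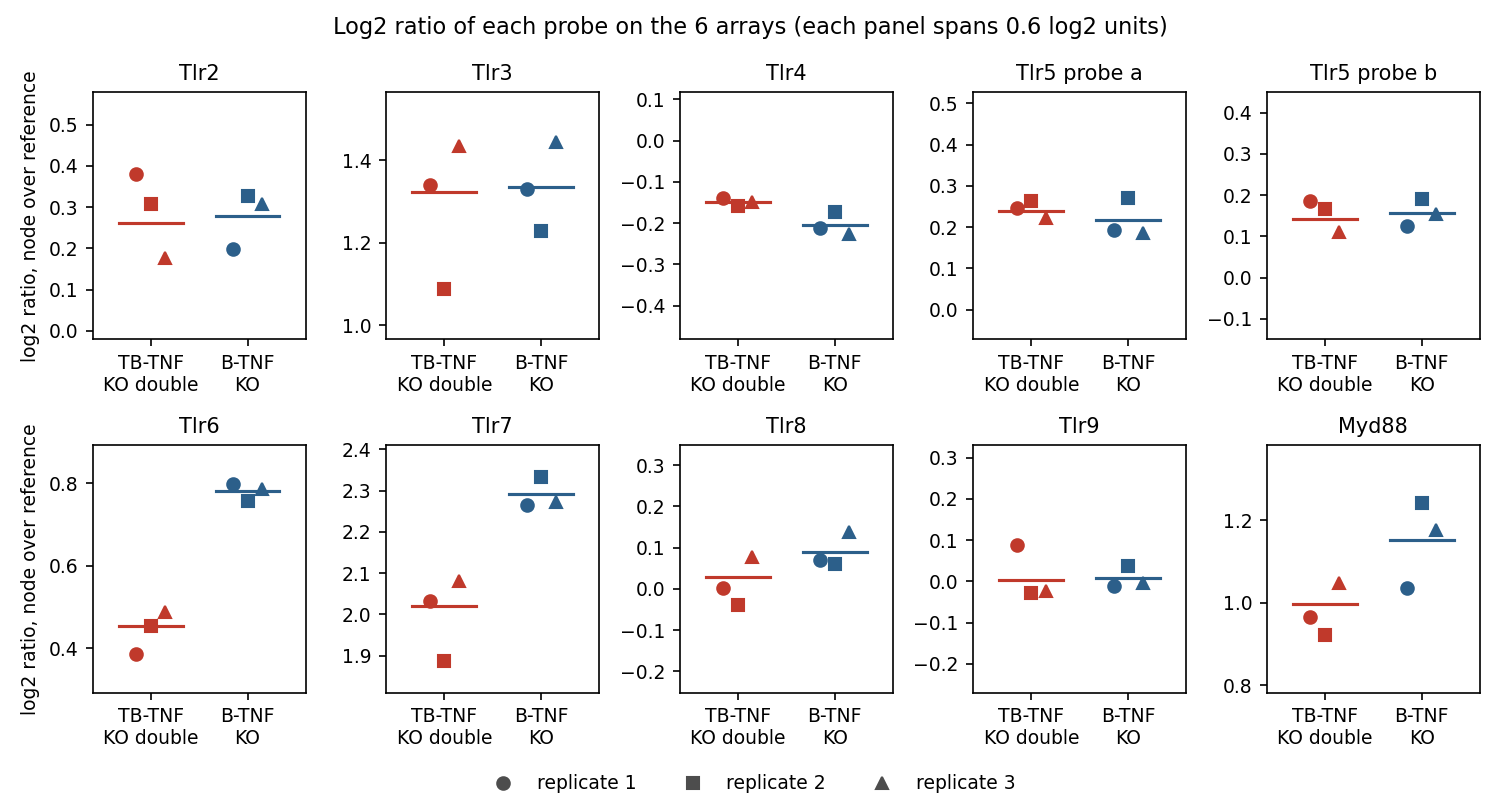
Log2 ratio of node over cell line reference for each of the 10 probes, 1 point per array, with the 3 TB-TNF KO double arrays left of the 3 B-TNF KO arrays and bars for the group means (replicates 1 and 2 of TB-TNF KO double counted as 1 sample). Tlr6 and Tlr7 are the probes whose TB-TNF KO double points all lie below the B-TNF KO points, and for Tlr4 they all lie above, by a small margin.

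Tlr6 forms a heterodimer with Tlr2 that binds diacylated lipopeptides of bacteria. Its log2 ratio was 0.39, 0.45 and 0.49 on the TB-TNF KO double arrays, against 0.80, 0.76 and 0.79 on the B-TNF KO arrays. The groups were separated by a wider gap than the spread within either of them. The means were 0.45 ± 0.05 (SD, n = 2) in TB-TNF KO double and 0.78 ± 0.02 (SD, n = 3) in B-TNF KO nodes. The difference was -0.33 (SE 0.05, 95% interval -0.44 to -0.22), larger in size than that of 96.2% of all probes. Its unadjusted p was 0.00036 and its adjusted p over all probes 0.056 in limma, just short of the threshold. With the replicate number as a block over all 6 arrays the difference was -0.34 and the adjusted p 0.017 in limma. With the 6 arrays counted separately and no block the adjusted p was 0.011. Both of these fits count the near-identical TB-TNF KO double arrays as separate samples.

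Tlr6 was also lower in the node channel itself. Background-subtracted Cy3 intensity of the Tlr6 probe was 125, 120 and 163 on TB-TNF KO double arrays, against 221, 188 and 277 on B-TNF KO arrays, before any scaling for the dimmer node channel of the TB-TNF KO double arrays. After normalisation the node channel alone differed by -0.38 and the reference channel by -0.13. The Tlr6 probe has 35% G and C, and probes of like composition had a median difference of -0.05. With a correction for that composition the Tlr6 difference was -0.26, and without background subtraction it was -0.17.

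Tlr2, the partner of Tlr6 and of Tlr1, did not show the same separation. Its log2 ratio was 0.38, 0.31 and 0.18 in TB-TNF KO double nodes, against 0.20, 0.33 and 0.31 in B-TNF KO nodes, so the groups overlapped. The difference was -0.02 (SE 0.07, 95% interval -0.19 to 0.15, adjusted p 0.94 in limma). The intervals of Tlr2 and Tlr6 did not overlap, although the difference between these differences was not tested.

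Tlr4, the receptor for bacterial lipopolysaccharide, had log2 ratios of -0.14, -0.16 and -0.15 in TB-TNF KO double nodes, against -0.21, -0.17 and -0.23 in B-TNF KO nodes. All TB-TNF KO double values were the higher ones, by a gap smaller than the spread within B-TNF KO nodes. The difference was 0.05 (SE 0.04, 95% interval -0.05 to 0.16, adjusted p 0.61 in limma), and it was -0.00 in the node channel alone.

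Tlr5, the flagellin receptor, differed by 0.02 (SE 0.05, 95% interval -0.09 to 0.14) with probe a and by -0.01 (SE 0.05, 95% interval -0.13 to 0.10) with probe b. On the arrays, probe a lay between 0.22 and 0.26 in TB-TNF KO double nodes and between 0.19 and 0.27 in B-TNF KO nodes. Probe b lay between 0.11 and 0.19 in TB-TNF KO double nodes and between 0.13 and 0.19 in B-TNF KO nodes. The groups overlapped with both probes, which share most of their bases.

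Among the endosomal receptors, Tlr7, which binds single-stranded RNA, had log2 ratios of 2.03, 1.89 and 2.08 in TB-TNF KO double nodes, against 2.27, 2.33 and 2.27 in B-TNF KO nodes. The lowest value was that of the female pool, and the male-labelled replicate 3 also lay below all B-TNF KO arrays. The means were 2.02 ± 0.09 (SD, n = 2) and 2.29 ± 0.04 (SD, n = 3) in TB-TNF KO double and B-TNF KO nodes. The difference was -0.27 (SE 0.05, 95% interval -0.40 to -0.14), larger in size than that of 93.7% of all probes, with an unadjusted p of 0.0026 and an adjusted p of 0.090 in limma. The replicate block over all 6 arrays gave -0.29 with an adjusted p of 0.049 in limma, and the 6 arrays counted separately gave an adjusted p of 0.033. Both of these fits count the near-identical TB-TNF KO double arrays as separate samples.

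Tlr7 is X-linked, and the 2 arrays lowest in Y-linked signal both held TB-TNF KO double pools. Without TB-TNF KO double replicate 2 the Tlr7 difference was -0.23, and without replicate 1 it was -0.31. Between the replicate 3 arrays of the groups, both with Y-linked signal, it was -0.19, with 1 array per group and hence no test. Background-subtracted Cy3 intensity of the Tlr7 probe reached 213 to 324 on TB-TNF KO double arrays and 388 to 470 on B-TNF KO arrays, without overlap and again before scaling. The normalised node channel alone differed by -0.29 and the reference channel by -0.12. The Tlr7 probe has 40% G and C, and probes of like composition had a median difference of -0.02. With a correction for that composition the Tlr7 difference was -0.24, with an adjusted p of 0.11 in limma.

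Tlr8, the neighbour of Tlr7 and known as an RNA sensor in human cells, had log2 ratios of 0.00, -0.04 and 0.08 in TB-TNF KO double nodes, against 0.07, 0.06 and 0.14 in B-TNF KO nodes. The groups overlapped and the difference was -0.06 (SE 0.05, 95% interval -0.19 to 0.07, adjusted p 0.66 in limma). Tlr8 was dim, with background-subtracted node intensities of 28.1 to 37.6 on TB-TNF KO double arrays and 34.7 to 65.8 on B-TNF KO arrays. Offset background correction pulls ratios of such probes towards 0.

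Tlr9, which binds unmethylated CpG DNA, was dim as well, at 48.2 to 54.0 on TB-TNF KO double arrays and 60.9 to 61.0 on B-TNF KO arrays. Its log2 ratios were 0.09, -0.03 and -0.02 in TB-TNF KO double nodes, against -0.01, 0.04 and -0.00 in B-TNF KO nodes. They overlapped and differed by -0.00 (SE 0.04, 95% interval -0.11 to 0.11). A difference of the size seen for Tlr6 lies outside the intervals of both Tlr8 and Tlr9, with the limit that these intervals do not include the effect of the offset.

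Tlr3 binds double-stranded RNA and signals through Ticam1 rather than Myd88. Its log2 ratio was 1.34, 1.09 and 1.43 in TB-TNF KO double nodes, against 1.33, 1.23 and 1.44 in B-TNF KO nodes. The groups overlapped, with a difference of -0.01 (SE 0.09, 95% interval -0.23 to 0.21, adjusted p 0.97 in limma), the widest interval among the members. Replicate 3 lay above the mean of replicates 1 and 2 by 0.22 in TB-TNF KO double and by 0.16 in B-TNF KO nodes. The 95th percentile of this shift over all probes was 0.22 in TB-TNF KO double and 0.19 in B-TNF KO nodes. These arrays are the ones low in pancreas markers, and the part of that tissue in the Tlr3 values was not tested.

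Myd88 had log2 ratios of 0.97, 0.92 and 1.05 in TB-TNF KO double nodes, against 1.04, 1.24 and 1.18 in B-TNF KO nodes. The groups overlapped through B-TNF KO replicate 1. The difference was -0.16 (SE 0.07, 95% interval -0.34 to 0.02), with an unadjusted p of 0.079 and an adjusted p of 0.38 in limma. The channels taken singly gave another sign than the ratio. The node channel alone was higher by 0.21 in TB-TNF KO double nodes, and the reference channel was higher by 0.27 on the same arrays. Background-subtracted Cy3 intensity before normalisation was 810 to 1219 on TB-TNF KO double arrays and 983 to 1422 on B-TNF KO arrays, and so overlapped.

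**Figure D2:**
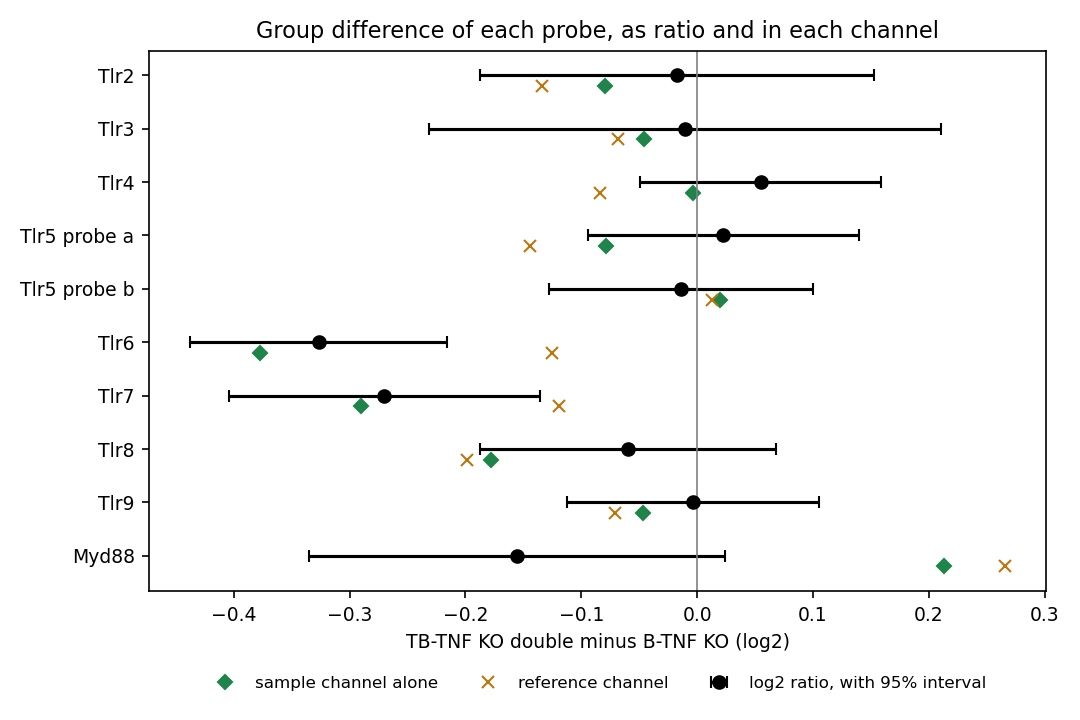
Difference in log2 ratio, TB-TNF KO double minus B-TNF KO, for each member probe, with its 95% interval, and the differences of the node channel and of the reference channel alone. The intervals of Tlr6 and Tlr7 lie below 0, and the node channel of Myd88 lies on the other side of 0 from its ratio.

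Relative to the cell line pool, nodes of both groups, averaged, had more Tlr7, Tlr3, Myd88 and Tlr6 signal. The fold over the reference was 4.54 for Tlr7, 2.51 for Tlr3, 2.13 for Myd88 and 1.57 for Tlr6. It was 1.21 for Tlr2, 1.17 and 1.11 for the Tlr5 probes, 1.05 for Tlr8 and 1.00 for Tlr9, and for Tlr4 the reference was 1.13-fold higher. Without background subtraction the fold was 1.95 for Tlr7 and 1.32 for Tlr3, and with the scanner's own log ratios it was 6.66 and 4.25. These folds carry no test, and nodes were always labelled with Cy3, so dye and tissue cannot be told apart in them.

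The proteins that help the receptors fold, move and bind ligand included the gene with the smallest unadjusted p of the pathway lists. Ly96, also called MD-2, which binds lipopolysaccharide together with Tlr4, had log2 ratios of 0.55, 0.48 and 0.42 in TB-TNF KO double nodes, against 0.84, 0.82 and 0.87 in B-TNF KO nodes. The groups did not overlap, and the difference was -0.38 (SE 0.05, adjusted p 0.055 in limma). A second, separate Ly96 probe, at 0.00 in TB-TNF KO double and 0.02 in B-TNF KO nodes, differed by -0.02, so the probes disagreed. Ctsb, a lysosomal protease of the kind that processes endosomal receptors, differed by -0.33 with its brighter and by -0.25 with its other probe. Cnpy3, a chaperone of Toll-like receptors, differed by -0.15, and by -0.04 in the node channel alone. Ly86, the partner of Cd180, differed by 0.16, and by 0.02 with median centring in place of loess. Of the 14 of 16 such genes measured, 4 had higher and 10 lower values, 1 and 3 of them with an unadjusted p under 0.05 and 0 with an adjusted one. Over all probes 55% had lower values, and 5.02% were higher and 11.2% lower by unadjusted p, which is the background for the counts of every pathway list. Unc93b1, which carries the endosomal receptors to their compartment, was at 2.74 in TB-TNF KO double and 2.61 in B-TNF KO nodes, a difference of 0.13 with overlapping groups.

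Adaptors and kinases downstream of the receptors had 14 lower and 4 higher values among the 18 of 22 genes measured, with 2 lower by unadjusted p and 0 adjusted, a share close to the 11.2% of all probes. Ikbkg, the regulatory subunit of the IkB kinase complex, differed by -0.31 (SE 0.08, adjusted p 0.14 in limma), with values of 0.18, 0.18 and 0.16 in TB-TNF KO double and of 0.39, 0.42 and 0.62 in B-TNF KO nodes. All values of TB-TNF KO double lay below those of B-TNF KO, and the difference was -0.10 without background subtraction. Ticam2, the adaptor that links Tlr4 to Ticam1, differed by -0.14 and with its other probe by -0.05, and its sign turned with the node channel alone (0.03). Ikbkb, a catalytic subunit of the same kinase complex, differed by -0.23 and the ubiquitin ligase Traf6 by -0.10. The kinases that bind Myd88 complexes showed no separation to lower values, with 0.15 for Irak1, -0.07 for Irak2 and 0.06 for Irak4, the last with the opposite sign (-0.01) in the node channel alone.

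Inhibitors of the pathway were measured for 10 of 12 genes, of which 7 had lower and 3 higher values. By unadjusted p 4 were lower and 0 higher, beside 11.2% and 5.02% of all probes, and 0 passed the adjusted threshold. These were Tank, which restrains Traf signalling (-0.27), Dok1, an adaptor that dampens kinase signals (-0.26), the deubiquitinase Cyld (-0.23) and Irak3, a kinase-dead relative of Irak1 (-0.20). In the node channel alone Cyld differed by -0.12 and Irak3 by -0.04, and a second Irak3 probe had the opposite sign, at 0.07. Tnfaip3, known as A20, differed by 0.01 and by -0.06 in the node channel alone, and Nfkbia, which encodes the inhibitor IkB alpha, by -0.07.

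Genes that receptor signalling is known to induce were split evenly, with 9 higher and 8 lower among the 17 of 20 measured and a median of 0.00. Il1b, an inflammatory cytokine, was at 0.06 ± 0.05 (SD, n = 2) in TB-TNF KO double and 0.33 ± 0.05 (SD, n = 3) in B-TNF KO nodes, a difference of -0.27 (SE 0.05, adjusted p 0.078 in limma). That difference was -0.06 without background subtraction, -0.08 with median centring and -0.44 with the scanner's log ratio. The costimulatory receptors Cd40 and Cd86 differed by -0.20 and -0.16, and the second Cd40 probe by -0.26, while Cd86 differed by -0.01 in the node channel alone. Cd80 was the gene with a higher value by unadjusted p, at 0.17, and was lower, at -0.12, with the node channel alone. Il6, Il10, Ifnb1, Cxcl1 and Cxcl10 had overlapping groups, with differences from -0.12 for Cxcl10 to 0.10 for Il6, which was at -0.05 in the node channel alone. Receptors of the IL-1 family, which also signal through Myd88, were measured for 5 of 6 genes, all with lower values and with a median of -0.11, and 0 passed the unadjusted threshold. The widest among them were Il18r1 at -0.29 and the decoy receptor Il1r2 at -0.28 (-0.09 without background subtraction), followed by Il1r1 at -0.11 and Il1rl2 at -0.05.

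**Figure D3:**
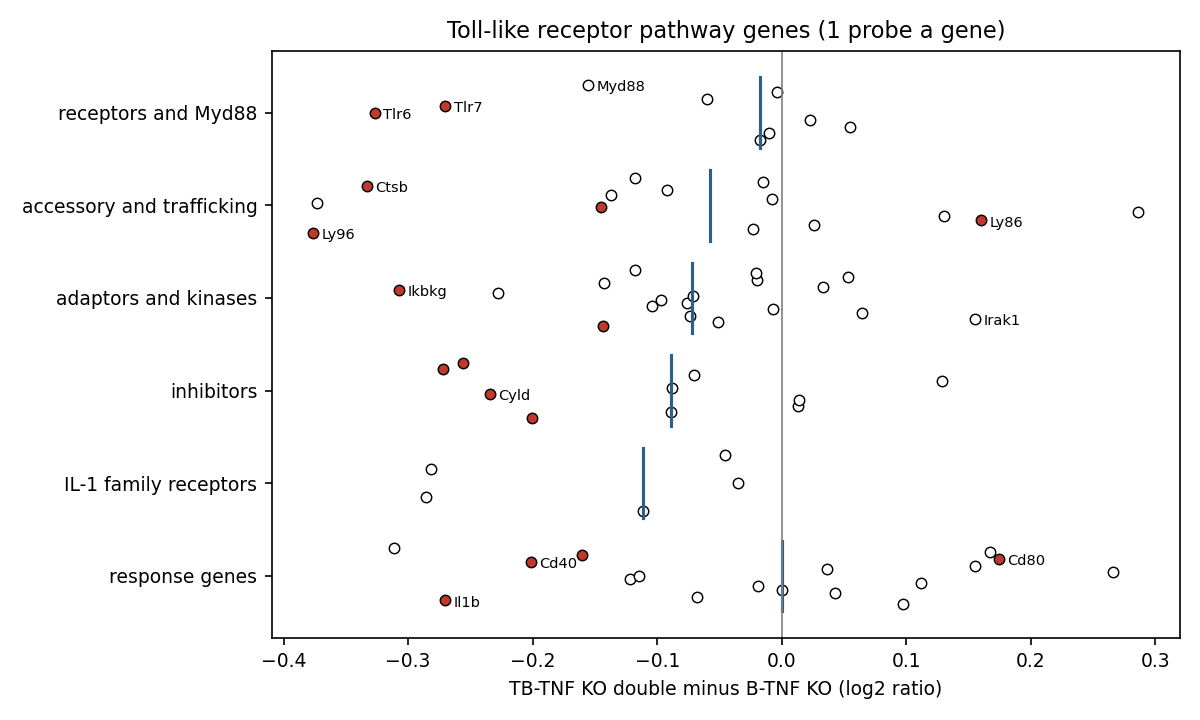
Difference in log2 ratio, TB-TNF KO double minus B-TNF KO, for every measured gene of each pathway list, 1 point per gene. Red points have an unadjusted p under 0.05, blue bars mark list medians, and each list but the response genes has its median below 0.

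Markers of the cell types known to carry these receptors were measured beside them. The background for their counts of lower values is again the 55% of all probes. Of the 9 macrophage and monocyte markers measured of 12, 8 had lower and 1 higher values, with a median difference of -0.10. Their summed node intensity was 58375 to 62168 on TB-TNF KO double arrays and 65750 to 70078 on B-TNF KO arrays, without overlap. No share over all probes was computed for such sums. The widest differences were those of Adgre1 and Siglec1, at -0.41 and -0.28, while Itgam was at -0.00, Lyz2 at -0.04 and Ccr2 at 0.04.

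Dendritic cell markers had lower values for 6 of the 8 measured of 9. Their median log2 ratio was 0.99 to 1.34 on TB-TNF KO double arrays and 1.57 to 1.65 on B-TNF KO arrays. Their median difference was -0.12 as ratio and 0.01 in the node channel alone. Their summed intensity overlapped, at 17919 to 18230 and 17461 to 19568 in TB-TNF KO double and B-TNF KO nodes. B cell markers had lower values for 5 of the 8 measured of 9, from -0.51 for Blk and -0.42 for Cd79a to 0.03 for Ms4a1, 0.05 for Cd79b and 0.12 for Cd22. The list's median difference was -0.08 as ratio and 0.06 in the node channel alone, and its summed intensity was 31071 to 38051 on TB-TNF KO double arrays and 32721 to 33481 on B-TNF KO arrays. Plasmacytoid dendritic cell markers went both ways, with 2 higher and 3 lower of the 5 measured of 6. Differences ran from -0.31 for Tcf4 to 0.26 for Irf8 and 0.27 for Ly6d. The list's median was -0.03 as ratio and 0.18 in the node channel alone. The summed intensity of this list was 43801 to 47440 on TB-TNF KO double arrays and 33789 to 42285 on B-TNF KO arrays. Such a sum gives most weight to the brightest genes of a list, and Siglech was not measured. Neutrophil markers had higher values for 5 of the 7 measured of 8. The named ones were S100a8 at 0.48, S100a9 at 0.22, Csf3r at -0.09 (0.16 in the node channel alone) and Mpo at -0.19. The groups overlapped for S100a9 and Mpo but not for S100a8 and Csf3r. The summed intensity of the neutrophil list was 2936 to 3236 on TB-TNF KO double arrays and 2164 to 2767 on B-TNF KO arrays. Of the 6 lymphatic endothelium markers 4 were lower. Lyve1, a receptor of lymphatic vessels and some macrophages, differed by -1.22 with an adjusted p of 0.0094 in limma. In the node channel alone Lyve1 differed by -0.41, and in the reference channel by 0.54. Higher in this list were Ccl21a, at 0.53 (0.05 in the node channel alone), and Pdpn, at 0.01 (-0.14 in the node channel alone). All of these measured markers were above background on every array, and their part in the Tlr6, Tlr7 and pathway values was not tested.

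Tlr7, Tlr6 and Tlr3 had the widest range over the 6 arrays, at 0.45, 0.41 and 0.36. The probes with the most similar array-by-array profile to Tlr7 were those of Rtl6, Serpina1d and Septin2, with a root mean square difference of 0.020 to 0.026 against a median of 0.16 over the 15163 probes with a symbol. Those nearest to Tlr6 were Pus7l, Hnrnpd and Elf1 at 0.022 to 0.029, and those nearest to Tlr3 were Epsti1, Ctla4 and Ermap at 0.029 to 0.032. Tlr6 and Tlr7 were at 0.077 from each other. These are descriptions over 6 arrays that share a reference and say nothing of shared function.

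**Figure D4:**
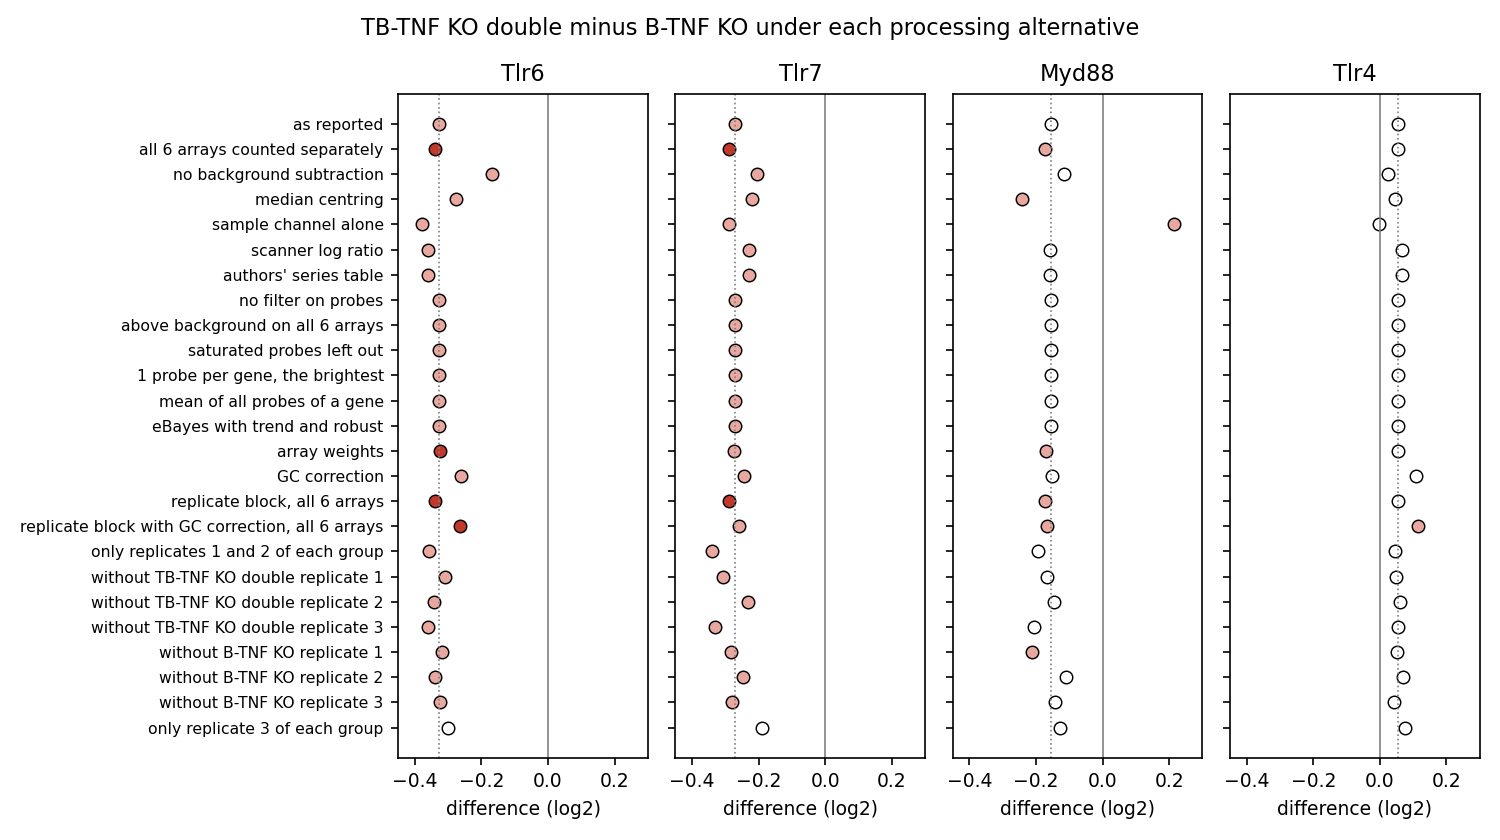
Difference of Tlr6, Tlr7, Myd88 and Tlr4 in log2 ratio, TB-TNF KO double minus B-TNF KO, under each processing alternative, with the reported value as a dotted line. Dark red points have an adjusted p under 0.05, pale points an unadjusted p under 0.05 and white points neither, or no test in the bottom row, and Tlr6 and Tlr7 stay below 0 throughout while Myd88 lies above 0 with the node channel alone.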

How the data were processed

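Gene expression was measured on 6 two-colour arrays. Images were quantified by Agilent Feature Extraction A.7.5.1, per the file headers. For each spot, the deposited scanner output holds the intensity of both channels, that of the surrounding background, and a log10 ratio in which the cell line reference stands over the node. A second deposited table, of the whole series, has log10 values (column medians 2.98 to 2.99) with unknown scaling between arrays. From the intensities, normexp background correction (offset 50) and loess within each array gave log2 ratios of sample over reference in limma 3.58.1 (R 4.3.3), with control spots at weight 0. Before the fit, 210 spots with an outlier mark were left out. Probes well above background in the sample channel on at least 3 arrays were kept, 40792 of 41006, and 40791 could be tested. Of 41034 spots, 15303 were given a symbol through a RefSeq table of the GRCm38.p6 assembly, used for names and gene neighbours only.

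Each probe was tested with lmFit and eBayes, with Benjamini-Hochberg adjustment over all probes and a threshold of 0.05. TB-TNF KO double arrays 1 and 2 entered as their mean. SDs are over the samples so counted. A gene of a list is represented by its brightest probe. Nothing beyond the labels shows that the pools came from separate animals, so p-values measure the spread between these samples. Precision is limited by how few arrays there are.

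The members, the lists and the tests were chosen with earlier results of these data known. Every member probe was described. From each list up to 4 genes with the smallest unadjusted p were named, with Tnf as the targeted gene and the 3 nearest profiles of the 3 members with the widest range. Other list genes were named after their values were seen, for their role. The replicate numbers come from the sample titles. Deviations of same-numbered arrays from their group means correlated across probes, which are not independent replicates, at 0.13, 0.53 and 0.62 for replicates 1, 2 and 3, so the number was also fitted as a block. TB-TNF KO double array 1 correlated more with B-TNF KO array 2 (0.43) than with array 1, so the values separate replicate 3 from the other two rather than all 3 numbers. The fit was tested on simulated data, and plots were made in Python 3.11.15 with matplotlib 3.10.9.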

Additional observations from a re-analysis of the deposited data

How the results depend on the processing

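The groups hold 2 samples against 3, the extraction day cannot be told apart from the group, and dim probes such as Tlr8 and Tlr9 are limited by signal over background. Of 24 alternatives, 23 carried a test and 4 called a member. Tlr6 ranged from -0.38 to -0.17 and Tlr7 from -0.34 to -0.19, both with an unadjusted p under 0.05 in all 23. Myd88 ranged from -0.24 to 0.21. Tlr2 ranged from -0.13 to 0.08, and its sign changed in 7 alternatives. Among the pathway genes named for their unadjusted p, Ticam2, Cd80 and Il1rl2 changed sign, with ranges of -0.18 to 0.03, -0.12 to 0.30 and -0.11 to 0.11. The pathway genes named for their role were compared in the node channel only, where Irak4, Tnfaip3 and Il6 changed sign. Of the named cell type markers, Csf3r and Pdpn changed sign there.

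The reported fit called 0 probes higher and 6 lower, none of them a member. With the 6 arrays counted separately it called 597 higher and 1868 lower (2 members lower), with array weights 97 and 311 (1 member, Tlr6, adjusted p 0.047 in limma), and with a trended, robust variance 148 and 409. With the node channel alone it called 193 higher and 211 lower. The replicate block over all 6 arrays called 738 higher and 2531 lower (2 members lower), and with a GC correction 834 and 1497 (1 member lower, Tlr6, adjusted p 0.034 in limma). The block changed the call of no other member. Among probes, 0 were called lower without background subtraction, 0 with the authors' series table, 0 with replicates 1 and 2 alone, 1 with the scanner log ratio and 2 with the mean of a gene's probes. Leaving out each replicate in turn gave 0 to 5 lower calls. Those were 0 without TB-TNF KO double replicate 3 or B-TNF KO replicate 2, and 1 without B-TNF KO replicate 1. Without B-TNF KO replicate 3 or TB-TNF KO double replicate 2 there were 3. Separate counting and the block use more samples than the reported fit, and for the other settings the cause was not tested. The alternatives for the node over reference folds and for the named pathway genes were chosen after seeing the data.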
